A study of Mus musculus with 4 samples.

Results

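The genes described here are 40 genes of the extracellular matrix: collagens, basement membrane proteins, elastic fibre proteins, small proteoglycans and the enzymes that process and crosslink collagen. They were chosen as a list of gene symbols. A gene was read from the array row paired with its symbol and no other, and from the brightest such row where there were several. Of the 40 genes, 38 had such a row among 22180 genes in all, and 37 lay above the intensity filter and were among the 13308 genes tested. Fbn1 (fibrillin-1) and Loxl2 (a lysyl oxidase) had no row of their own and were not analysed here. Col18a1, of the basement membrane zone, fell just under the filter, at 1.36 and 1.46 in WT and 1.48 and 1.59 in dbTg on the log2 scale, with the filter at 1.48.

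RNA came from the quadriceps of 2 wild-type mice (WT) and 2 mice with transgenes for both NF90 and NF45 (NF90-NF45 dbTg), a pair of partner proteins that bind double-stranded RNA, with 1 expression array per sample. In each group replicate 1 was male and replicate 2 female; ages were 16 weeks, except that WT 1 was 17 to 18 weeks. The strain, and the promoter that drives the transgenes, go unnamed in the labels. Ilf2, which encodes NF45, read 5.03 and 5.04 in WT and 10.36 and 10.16 in dbTg, as the labels say. Readings are RMA values in log2 units, where a difference of 1 is a 2-fold change, and every difference is dbTg minus WT. With 2 arrays against 2, an exact permutation test of a single gene cannot give a p-value below 0.333, so tests are from limma over all 13308 genes with Benjamini-Hochberg adjustment and a threshold of 0.05.

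Each muscle fibre is wrapped in a basement membrane, a sheet of laminins and type IV collagen joined by nidogens and perlecan, which anchors the fibre through integrins and dystroglycan. Outside this sheet lies the interstitial matrix, in which fibrils of type I and type III collagen carry force, type V collagen starts the fibrils, and small leucine-rich proteoglycans and fibril-associated collagens set their width and spacing. In muscle, resident fibroblasts and fibro-adipogenic progenitors are known as the main source of interstitial collagen, and this matrix builds up after injury, in ageing and in dystrophy. On an array of whole muscle, more cells of a type and more RNA per cell cannot be told apart.

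Most matrix genes read higher in dbTg muscle, by small amounts, and none passed the test over all genes. Of the 37 tested, 35 had positive differences (94.6%, against 60.5% of all tested genes) and 27 had both dbTg arrays above both WT arrays (73.0%, against 33.7% of all). In 1 gene, Fbln5, both dbTg arrays lay below both WT arrays (16.3% of all tested genes). The median difference was 0.42, against 0.09 for all tested genes, and single genes ranged from -0.18 to 1.38. In limma, 0 of the 37 were called in either direction (2.21% of all tested genes), 0 higher (2.01% of all) and 0 lower (0.203% of all). At an unadjusted p under 0.05, 14 were higher (37.8%, against 14% of all) and 0 lower (against 4.64%). Every one of the 37 had a WT mean above the intensity filter, so none was tested only because it was high in dbTg. The closest to the threshold were Col8a1, Bgn, Dpt, Col3a1 and Lum, with adjusted p-values from 0.0537 to 0.0618.

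**Figure D1:**
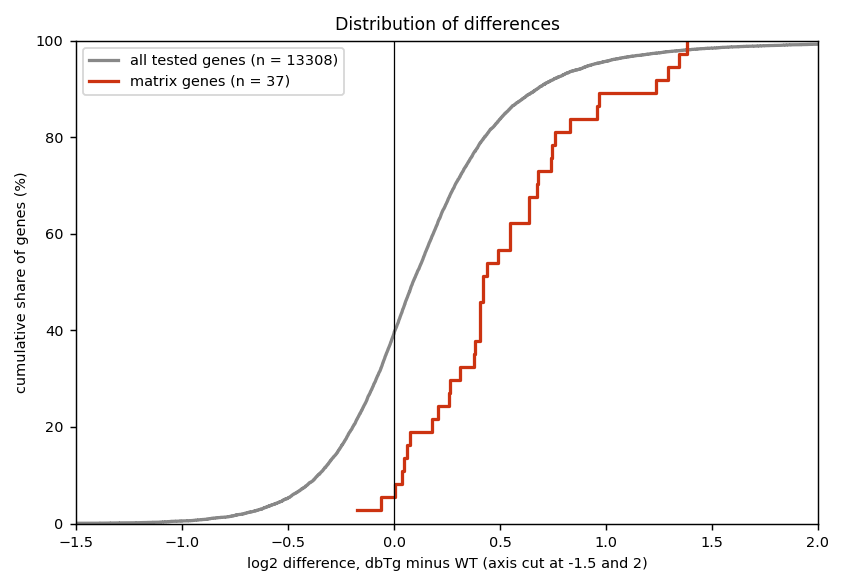
Cumulative share of genes (%, vertical axis) against the log2 difference, dbTg minus WT (horizontal axis, cut at -1.5 and 2), for the 37 matrix genes (red) and all 13308 tested genes (grey). The red curve lies to the right of the grey one at every height up to its last steps; its median is 0.42 and that of all genes 0.09.

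Single arrays moved these results. A refit without 1 array leaves a single mouse in that group and takes its residual variance from the other group alone, so its calls are weak evidence. WT 2, the female, gave the lowest of the 4 readings in 25 of the 37 genes (67.6%, against 32.7% of all tested genes), and dbTg 2, also female, gave the highest in 22 (59.5%, against 28.4%). Without WT replicate 1, 9 matrix genes were called higher (4.58% of all tested genes were) and the median was 0.61. Those 9 were Bgn, Col3a1, Col5a1, Col6a2, Col6a3, Col8a1, Dpt, Fn1 and Lum. Without WT replicate 2, 4 were called (4.46% of all), namely Bgn, Col3a1, Col5a2 and Col8a1. Without dbTg replicate 1, and likewise without dbTg replicate 2, 0 were called (0.0301% of all in each case), and at an unadjusted p under 0.05 the matrix genes higher numbered 10 and 7 (8.89% and 7.77% of all). Called higher were also 3 with the filter at the 60th percentile (Bgn, Col8a1 and Dpt; 3.66% of all tested genes), 2 with robust eBayes (Bgn and Col8a1; 2.39%) and 1 when the probe sets of a gene were averaged (Col8a1; 2.07%), and 0 after median centring (0.932%), after quantile normalization (0.902%) and with the replicate block (0.473%). After median centring 8 were higher at an unadjusted p under 0.05 (6.77% of all), and with the block 16 (13.3% of all). Median centring takes the same amount from the difference of every gene, and moved the median of all tested genes from 0.09 to -0.16.

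**Figure D2:**
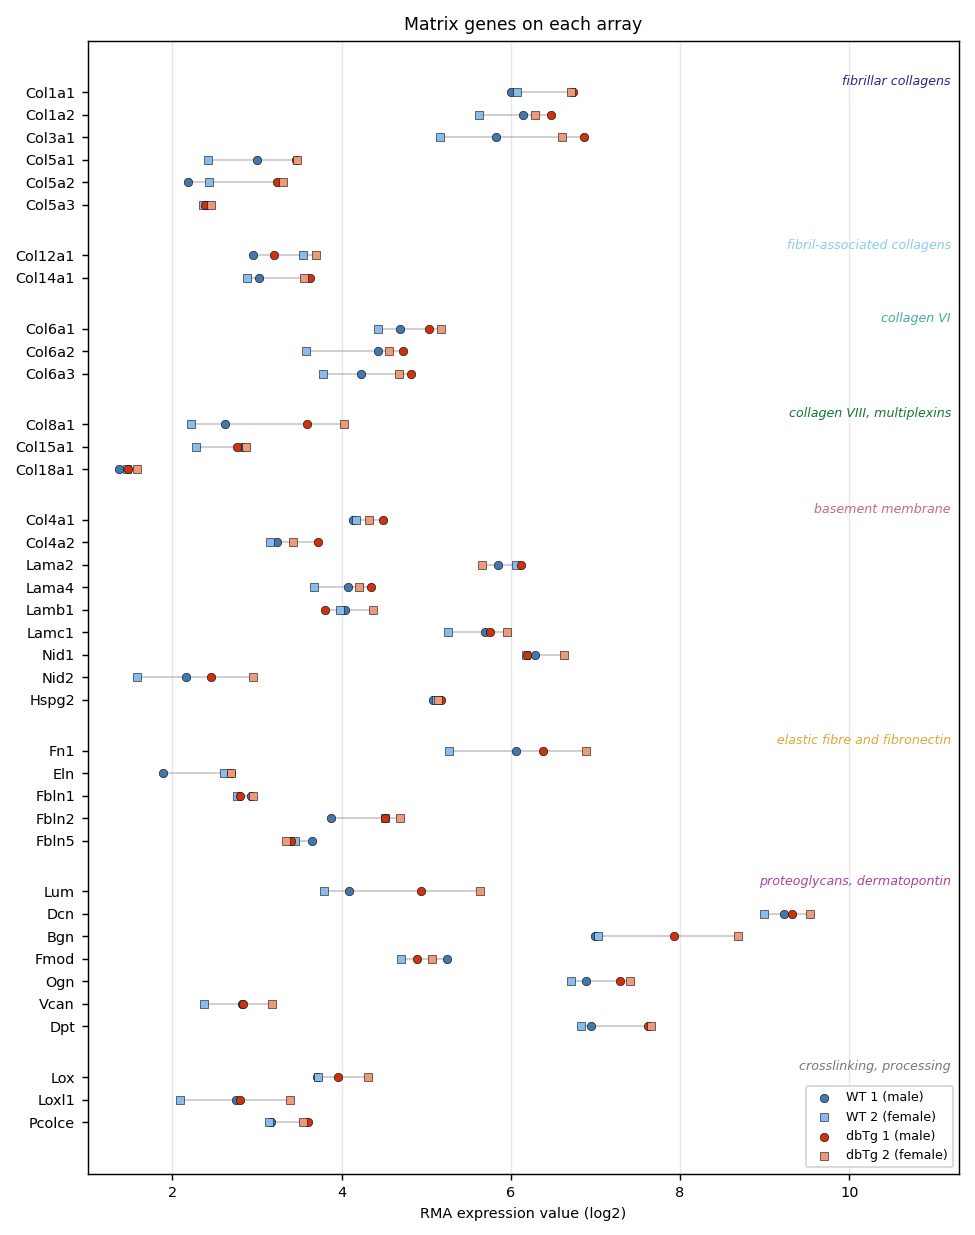
RMA expression value (log2, horizontal axis) of the 38 matrix genes with a row of their own (vertical axis, by role) on each of the 4 arrays; blue is WT, red dbTg, circles male, squares female, and grey lines join the lowest and the highest array. The red points lie right of the blue ones for Col3a1, Col8a1, Bgn, Dpt and Lum, and mix with them for Col5a3, Fmod and Lama2; levels of different genes are not comparable on this axis.

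The fibrillar collagens form the load-bearing fibrils. All 6 had positive differences (60.5% of all tested genes did), with a median of 0.72. At an unadjusted p under 0.05, 4 were higher (14% of all). Col3a1, the type III collagen of reticular fibres and early scar, read 5.83 and 5.17 in WT and 6.87 and 6.60 in dbTg. Both dbTg arrays were above both WT arrays, and the difference was 1.24 (SE 0.25, 2.36-fold, adjusted p = 0.0601). Col1a1, the main chain of type I collagen, read 6.0 and 6.08 in WT and 6.73 and 6.71 in dbTg. Its groups were the tightest of the fibrillar chains of type I and III and did not overlap, with a difference of 0.68 (SE 0.15, adjusted p = 0.0777). Its partner Col1a2, which joins the Col1a1 chain in the type I helix, read 6.14 and 5.63 in WT and 6.47 and 6.28 in dbTg. That is a difference of 0.49 (SE 0.21, adjusted p = 0.283), and a dimmer Col1a2 row differed by 0.46. The Col1a1 difference exceeded the Col1a2 difference by 0.41 between males and differed from it by -0.02 between females, so the chains did not separate beyond the spread.

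Type V collagen is buried in type I fibrils and limits their width. Col5a2 read 2.19 and 2.44 in WT and 3.23 and 3.31 in dbTg, a difference of 0.96 (SE 0.22, adjusted p = 0.0815). Col5a1 read 3.0 and 2.42 in WT and 3.46 and 3.47 in dbTg, a difference of 0.76 (SE 0.26, adjusted p = 0.185), while a dimmer row of the gene differed by -0.22. In both genes the WT arrays were further apart than the dbTg arrays, without overlap of the groups. Col5a3, a rarer chain, read 2.40 and 2.36 in WT and 2.39 and 2.45 in dbTg, with groups that overlap. Its difference of 0.04 had a 95% interval of -0.44 to 0.53, and it was negative after median centring (-0.20) and quantile normalization (-0.09).

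Fibril-associated collagens sit on the fibril surface. Col14a1 read 3.02 and 2.88 in WT and 3.63 and 3.56 in dbTg, which do not overlap (difference 0.64, SE 0.21, adjusted p = 0.169). Col12a1 read 2.95 and 3.54 in WT and 3.21 and 3.70 in dbTg, and the female of each group was the higher (difference 0.21, SE 0.29, adjusted p = 0.763). Without WT replicate 1 the Col12a1 difference was -0.09, and after median centring -0.04. Type VI collagen makes beaded filaments next to the fibre's basement membrane, and its loss causes muscular dystrophy. In all of its 3 chains both dbTg arrays lay above both WT arrays (33.7% of all tested genes), with WT 2 the lowest array each time. Col6a3 read 4.23 and 3.78 in WT and 4.82 and 4.67 in dbTg (difference 0.74, SE 0.22, adjusted p = 0.146). Col6a1 read 4.69 and 4.43 in WT and 5.03 and 5.18 in dbTg (0.55, SE 0.19, adjusted p = 0.194). Col6a2 read 4.43 and 3.58 in WT and 4.72 and 4.56 in dbTg (0.64, SE 0.30, adjusted p = 0.314). The median of the 3 chains was 0.42 when WT replicate 2 was left out and 0.96 when WT replicate 1 was.

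Col8a1, a short network-forming collagen known from vessel walls, had the largest difference of all 37 genes. It read 2.63 and 2.22 in WT and 3.59 and 4.03 in dbTg. The groups were well apart, with a difference of 1.38 (SE 0.26, 2.61-fold, adjusted p = 0.0537). Its adjusted p ran from 0.0172 (without WT replicate 1) to 0.409 (without dbTg replicate 2) over the other settings. Col15a1, which bridges basement membrane and interstitial fibrils, read 2.82 and 2.28 in WT and 2.76 and 2.87 in dbTg. Its groups overlapped (0.26, SE 0.26, adjusted p = 0.638), and without WT replicate 2 its difference was -0.01.

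The proteoglycan group and dermatopontin held 3 of the 5 genes closest to the threshold. Bgn, the fibril-binding proteoglycan biglycan, read 7.0 and 7.03 in WT and 7.93 and 8.68 in dbTg. The WT arrays agreed closely and the dbTg arrays stood 0.93 and 1.66 above the WT array of their sex, for a difference of 1.29 (SE 0.25, 2.45-fold, adjusted p = 0.0541); a dimmer Bgn row differed by 0.84. Lum, the small proteoglycan lumican, read 4.08 and 3.80 in WT and 4.93 and 5.63 in dbTg (1.34, SE 0.27, 2.54-fold, adjusted p = 0.0618). Dpt, dermatopontin, a small protein that speeds fibril assembly, read 6.95 and 6.83 in WT and 7.62 and 7.65 in dbTg. Both groups were tight and apart (0.74, SE 0.14, adjusted p = 0.0542). Ogn, the proteoglycan osteoglycin, read 6.89 and 6.71 in WT and 7.29 and 7.41 in dbTg (0.55, SE 0.15, adjusted p = 0.122), again without overlap.

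Decorin is the closest relative of biglycan. Dcn read 9.23 and 8.99 in WT and 9.32 and 9.53 in dbTg, a difference of 0.31 (SE 0.14, adjusted p = 0.31). The Bgn difference exceeded the Dcn difference by 0.84 between males and 1.12 between females; this contrast was not tested. Fibromodulin, which shares collagen binding sites with lumican, read 5.25 and 4.70 in WT and 4.89 and 5.06 in dbTg. Both dbTg arrays of Fmod lay inside the WT range, with a difference of 0.00 (SE 0.23, 95% interval -0.55 to 0.56), which was -0.24 after median centring and -0.13 after quantile normalization. The Lum difference exceeded that of Fmod by 1.21 between males and 1.47 between females, again with no test of the contrast. Vcan, the large proteoglycan versican of provisional matrix, read 2.83 and 2.37 in WT and 2.83 and 3.18 in dbTg (0.40, SE 0.26, adjusted p = 0.463).

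The stretches below show the 250 bases before the annotated start of the 4 genes with the smallest p-values, for a reader who wants to compare what lies upstream of genes that read higher together. They are RefSeq sequences of assembly GRCm38.p6, 5′ to 3′ along the gene. Capitals mark matches on either strand to the TATA box (TATAAA), the CCAAT box (CCAAT), the GC box (GGGCGG) or the AP-1 site (TGANTCA).
Col8a1: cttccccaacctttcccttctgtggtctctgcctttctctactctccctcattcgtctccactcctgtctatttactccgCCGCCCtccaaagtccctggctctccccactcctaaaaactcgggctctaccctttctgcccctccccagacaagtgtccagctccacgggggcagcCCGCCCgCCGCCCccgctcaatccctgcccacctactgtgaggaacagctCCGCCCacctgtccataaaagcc
Bgn: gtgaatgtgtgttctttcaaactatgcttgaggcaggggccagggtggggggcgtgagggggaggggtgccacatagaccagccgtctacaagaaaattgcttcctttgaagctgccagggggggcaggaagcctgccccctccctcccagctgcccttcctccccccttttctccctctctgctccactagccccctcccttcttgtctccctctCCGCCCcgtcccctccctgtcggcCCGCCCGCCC
Dpt: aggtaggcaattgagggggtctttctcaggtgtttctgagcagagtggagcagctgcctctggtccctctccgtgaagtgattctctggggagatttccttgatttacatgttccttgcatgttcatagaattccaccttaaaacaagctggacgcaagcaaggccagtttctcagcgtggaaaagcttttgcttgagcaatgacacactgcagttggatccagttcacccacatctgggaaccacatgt
Col3a1: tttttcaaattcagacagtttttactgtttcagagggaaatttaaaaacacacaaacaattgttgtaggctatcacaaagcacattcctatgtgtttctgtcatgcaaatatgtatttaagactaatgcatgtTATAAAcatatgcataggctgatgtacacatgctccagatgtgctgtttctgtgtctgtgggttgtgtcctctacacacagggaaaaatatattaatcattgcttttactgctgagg
These windows lie at chr16:57754738-57754987, minus strand (Col8a1), chrX:73483351-73483600, plus strand (Bgn), chr1:164796413-164796662, plus strand (Dpt) and chr1:45311288-45311537, plus strand (Col3a1). The windows differ from each other in these letters: Col8a1 and Bgn hold 4 and 3 GC boxes and are 60.8% and 64.4% G or C, Col3a1 holds 1 TATAAA and is 35.2% G or C, and Dpt holds no match. Of the 40 matrix genes, 26 had such a window by symbol, with Fbn1 and Col18a1 among them though these were not tested. The median share of G or C was 61.4% in the matrix windows and 52.4% over all windows, and the GC box holds only these letters. A GC box was present for 17 of these 26 (35.4% of 27025 genes with a window), a CCAAT box for 9 (37.5%), TATAAA for 2 (14.3%) and the AP-1 letters for 1 (7.82%). A match is a description of letters and not of a bound site, and overlapping matches were counted each.

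**Figure D3:**
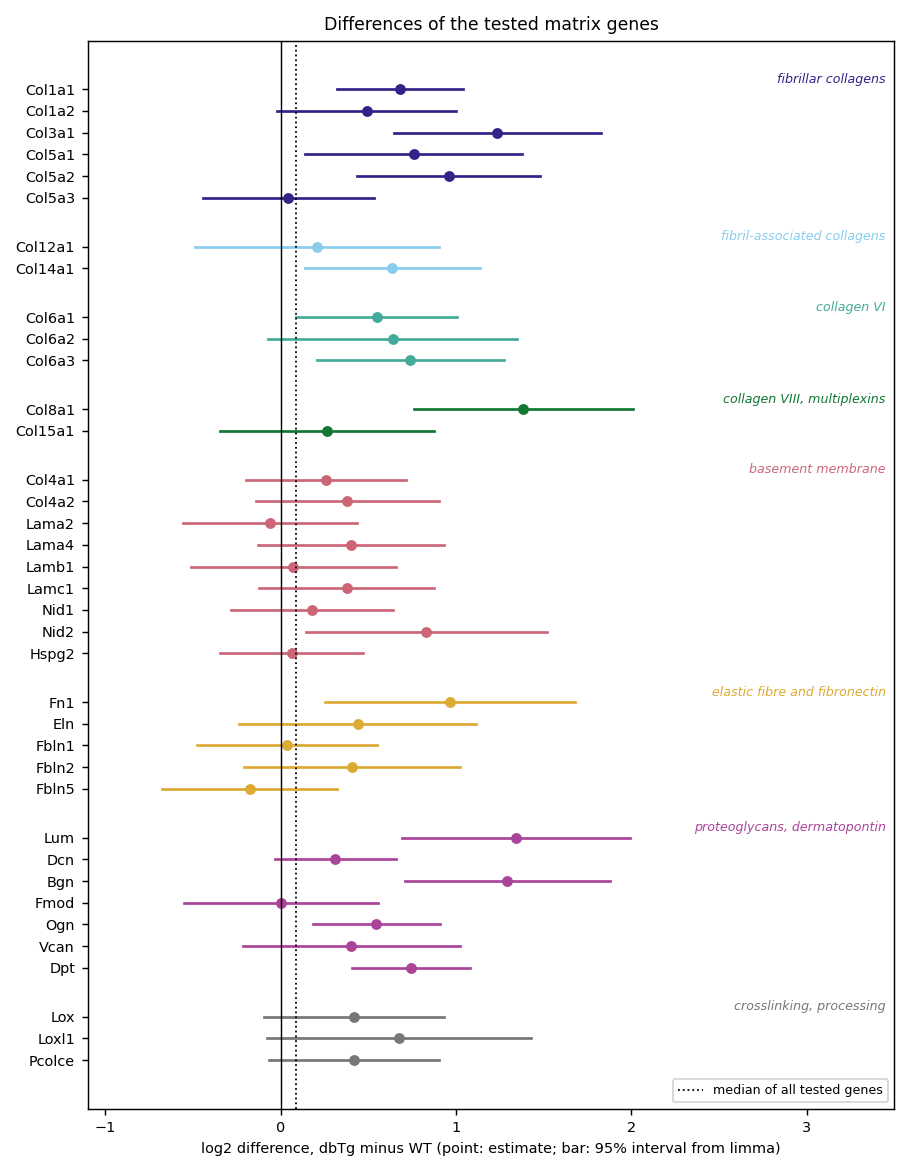
Log2 difference, dbTg minus WT (horizontal axis), of each of the 37 tested matrix genes (vertical axis, coloured by role); points are estimates, bars 95% intervals from limma before any adjustment, and the dotted line is the median of all tested genes, 0.09. The points furthest right are Col8a1 at 1.38, Lum at 1.34, Bgn at 1.29 and Col3a1 at 1.24, while Col5a3, Hspg2, Fbln1 and Fmod lie near 0 and Lama2 and Fbln5 left of it.

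Of the 9 tested basement membrane genes, 8 had positive differences (60.5% of all tested genes), and their median was 0.26 (0.15 without WT replicate 2). At an unadjusted p under 0.05, 1 was higher (14% of all). Nid2 (nidogen-2), a linker of laminin and type IV collagen, read 2.16 and 1.58 in WT and 2.45 and 2.95 in dbTg. Its difference of 0.83 (SE 0.29, adjusted p = 0.19) was 0.29 in males and 1.37 in females. Nid1, the more widespread nidogen, read 6.29 and 6.18 in WT and 6.20 and 6.63 in dbTg, with overlapping groups (0.18, SE 0.19, adjusted p = 0.68) and -0.07 after median centring. A dimmer Nid1 row read 4.95 and 4.97 in WT and 5.29 and 5.22 in dbTg, without overlap (difference 0.30). Col4a1 and Col4a2, which share 1 type IV helix, differed by similar amounts. Col4a1 read 4.13 and 4.17 in WT and 4.49 and 4.32 in dbTg (0.26, SE 0.19, adjusted p = 0.53). Col4a2 read 3.24 and 3.15 in WT and 3.72 and 3.43 in dbTg (0.38, SE 0.22, adjusted p = 0.409), and the Col4a2 difference was the larger by 0.12 in each sex pair (-0.12 as Col4a1 minus Col4a2).

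Muscle laminin is built from the chains of Lama2, Lamb1 or Lamb2, and Lamc1, and loss of Lama2 causes a congenital muscular dystrophy. Lama2 read 5.84 and 6.06 in WT and 6.12 and 5.66 in dbTg, so both dbTg arrays lay outside the WT range on opposite sides. Its difference was -0.06 (SE 0.21, 95% interval -0.56 to 0.43), and 0.05 without WT replicate 2. Lamb1 read 4.05 and 3.98 in WT and 3.80 and 4.37 in dbTg, a difference of 0.07 (SE 0.25, 95% interval -0.51 to 0.66) that was -0.17 after median centring and -0.12 after quantile normalization. Lamb2, a non-member, read 5.14 and 5.34 in WT and 5.14 and 4.80 in dbTg, with overlapping groups (-0.27, SE 0.20, limma adjusted p = 0.532). Lamc1 read 5.70 and 5.25 in WT and 5.75 and 5.95 in dbTg (0.38, SE 0.21, adjusted p = 0.392). Lama4, the alpha chain of vessel and developing-muscle laminins, read 4.07 and 3.67 in WT and 4.35 and 4.20 in dbTg (0.40, SE 0.22, adjusted p = 0.389). Hspg2, the heparan sulfate proteoglycan perlecan, was the steadiest of them, at 5.08 and 5.12 in WT and 5.17 and 5.14 in dbTg. Its difference of 0.06 (95% interval -0.34 to 0.47) was -0.19 after median centring and -0.05 after quantile normalization.

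The mean of each of the other 7 roles was also set against that of the basement membrane genes within each array, where a shift of a whole array cancels. In 5 of the 7 the dbTg arrays did not overlap the WT arrays, and in 2 they did. All 7 subtract the same basement membrane mean, so they are not separate results. Of single tested genes, 33.7% had both dbTg arrays above both WT arrays and 16.3% had both below. The mean of the 6 fibrillar collagens less the mean of the 9 basement membrane genes was -0.25 and -0.34 on the WT arrays and 0.19 and 0.06 on the dbTg arrays, which do not overlap; none of these contrasts was tested. The mean of the 7 proteoglycan and dermatopontin genes less the same basement membrane mean was 1.53 and 1.43 in WT and 1.73 and 2.00 in dbTg. The mean of the 3 type VI collagen chains less it was -0.06 and -0.42 in WT and 0.19 and 0.06 in dbTg. The type VIII and multiplexin genes gave -1.78 and -2.10 in WT and -1.5 and -1.29 in dbTg. That mean has only 2 genes, Col8a1 and Col15a1, and the groups of Col15a1 overlapped. The crosslinking genes gave -1.30 and -1.36 in WT and -1.22 and -0.99 in dbTg. In these 5 contrasts both dbTg arrays were above both WT arrays. The groups overlapped for the fibril-associated collagens, at -1.52 and -1.14 in WT and -1.26 and -1.11 in dbTg, and for the elastic fibre and fibronectin genes, at -0.83 and -0.63 in WT and -0.72 and -0.63 in dbTg. The zero of such a contrast depends on the probes and has no meaning; only its change between arrays does.

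Among fibronectin and the elastic fibre genes, Fn1 had the largest difference, though not in the male pair. Fn1, the fibronectin on which cells lay down new collagen, read 6.06 and 5.27 in WT and 6.37 and 6.89 in dbTg. The difference of 0.97 (SE 0.30, adjusted p = 0.151) was 0.32 between the males and 1.62 between the females. Eln, elastin, read 1.89 and 2.61 in WT and 2.69 in each dbTg array (0.44, SE 0.28, adjusted p = 0.464). Fbln2, a fibulin of basement membranes and elastic fibres, read 3.87 and 4.51 in WT and 4.51 and 4.69 in dbTg (0.41, SE 0.26, adjusted p = 0.457). In both genes WT 1 was the low array. Between the males Eln and Fbln2 differed by 0.80 and 0.64, more than Fn1, and between the females by 0.08 and 0.17. Fbln5, a fibulin needed to assemble elastic fibres, read 3.65 and 3.45 in WT and 3.40 and 3.35 in dbTg, and was the single gene with lower readings in both sex pairs (-0.25 and -0.10; difference -0.18, 95% interval -0.67 to 0.32, adjusted p = 0.712). Fbln1 read 2.93 and 2.76 in WT and 2.80 and 2.95 in dbTg, a difference of 0.04 (95% interval -0.48 to 0.55), -0.21 after median centring and -0.15 after quantile normalization.

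The crosslinking and processing genes had 3 of 3 positive differences (60.5% of all tested genes). None had an unadjusted p under 0.05 (14% of all were higher). In each of the 3, both dbTg arrays lay above both WT arrays (33.7% of all). Loxl1, a lysyl oxidase linked to elastic fibres, read 2.75 and 2.10 in WT and 2.80 and 3.39 in dbTg. Its difference of 0.68 (SE 0.32, adjusted p = 0.314) was 0.05 in males and 1.30 in females. Lox, the lysyl oxidase that crosslinks collagen, read 3.71 and 3.73 in WT and 3.96 and 4.32 in dbTg (0.42, SE 0.21, adjusted p = 0.354). Pcolce, which enhances the cutting of the procollagen end, read 3.16 and 3.14 in WT and 3.60 and 3.54 in dbTg (0.42, SE 0.20, adjusted p = 0.329), and differed by about the same in both sexes.

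The male and the female pair were compared as values, since 1 array per sex and genotype allows no test. In 29 of the 37 genes the difference was positive in both pairs (41.2% of all tested genes). The female difference was the larger in 27 of 37, against 50.3% of all tested genes, with medians of 0.32 for the males and 0.63 for the females. The genes most uneven between the sexes included Fn1, Loxl1 and Nid2, given above. Col1a1 (0.73 and 0.63), Dpt (0.67 and 0.82) and Pcolce (0.43 and 0.41) were close in both. Sex, the older age of WT 1 and differences between single mice cannot be told apart here.

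**Figure D4:**
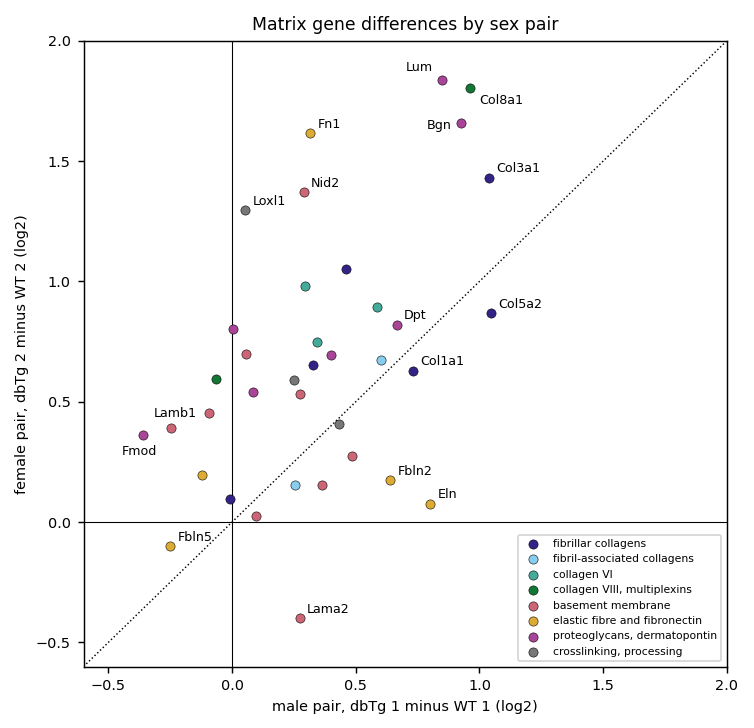
Log2 difference in the female pair (dbTg 2 minus WT 2, vertical axis) against the male pair (dbTg 1 minus WT 1, horizontal axis) for the 37 tested matrix genes, coloured by role; the dotted line marks equal differences. To the right of and above 0 lie 29 genes, and 27 of all 37 lie above the dotted line, with Fn1, Nid2 and Loxl1 far above it.

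Genes that make, cut and sense this matrix were read from lists of non-members, and none of them passed the test over all genes. Of 17 tested genes of collagen modification and secretion, 13 had positive differences (60.5% of all tested genes), with a median of 0.21 (-0.04 after median centring). At an unadjusted p under 0.05, 1 was higher (14% of all). That gene was Ppib, a proline isomerase of the collagen folding complex (0.91, SE 0.23, adjusted p = 0.0957); Bmp1, which cuts off the procollagen end, differed by 0.50 (adjusted p = 0.28). Of 19 tested matrix turnover genes, 15 had positive and 4 negative differences, with a median of 0.48. At an unadjusted p under 0.05, 8 were higher (14% of all tested genes) and 1 was lower (4.64%). Mmp14, the membrane-bound collagenase that activates the gelatinase Mmp2, read 3.01 and 2.98 in WT and 4.09 and 4.02 in dbTg (1.06, SE 0.20, adjusted p = 0.0537). Timp1, which encodes a protease inhibitor, read 1.81 and 1.92 in WT and 2.89 and 3.07 in dbTg (1.11, SE 0.21, adjusted p = 0.0541). The others higher at an unadjusted p under 0.05 were Mmp2 (0.94, adjusted p = 0.0865), Ctsk (0.91), Mmp19 (0.89), Mmp12 (0.70), Mrc2 (0.61) and Timp2 (0.59). The 4 negative differences were those of Timp3 (-0.32), Timp4 (-0.93, adjusted p = 0.307), Mmp9, a gelatinase (-0.49, adjusted p = 0.185), and Mmp11 (-0.24).

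Other collagens, laminins and lysyl oxidases differed in both directions. Of 27 tested, 13 had positive and 14 negative differences, with a median of -0.02. At an unadjusted p under 0.05, 1 was higher (14% of all tested genes) and 2 were lower (4.64%). Col4a5, a minor type IV chain, differed by -0.68 (SE 0.23, adjusted p = 0.178) and Lamb3, an epithelial laminin chain, by -0.50 (SE 0.19, adjusted p = 0.233). Of 23 matrix receptors, 6 were higher (unadjusted p under 0.05, 14% of all tested genes) and 2 were lower (4.64%). Their median was 0.03 (-0.22 after median centring). Among them are the fibre's own laminin receptor chains: Itga7 differed by 0.98 (SE 0.21, adjusted p = 0.0698) and its partner Itgb1 by 0.66 (SE 0.15, adjusted p = 0.0817). Dag1, which encodes dystroglycan, differed by -0.10 with overlapping groups (adjusted p = 0.838). The 2 lower receptors were the integrin chains Itga1 (-0.60, adjusted p = 0.138) and Itgb5 (-0.52, adjusted p = 0.206). Of 21 genes of the TGF-beta axis, which drives collagen transcription, 3 were higher at an unadjusted p under 0.05 (14% of all tested genes). Their median was 0.05 (-0.20 after median centring). Tgfbi, a secreted matrix protein induced by TGF-beta, differed by 0.98 (SE 0.19, adjusted p = 0.0555) and Ltbp1, which stores TGF-beta in the matrix, by 0.76 (SE 0.24, adjusted p = 0.163).

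Markers of cell types that quadriceps can hold were read from the same fit, and their part in the matrix differences was not tested. Of 14 listed fibroblast and fibro-adipogenic progenitor markers, 10 were tested, and 8 had positive differences (median 0.47, 60.5% of all tested genes positive). Called higher was 1 (2.01% of all), Thy1, by 1.05 (adjusted p = 0.0456, SE 0.18), with its WT mean, 1.13, below the filter. Hic1, Tcf21 and Twist2 lay under the filter. The defining receptor gene Pdgfra read 4.28 and 4.97 in WT and 5.26 and 4.89 in dbTg (0.45, adjusted p = 0.448). The mean of the 10 fibroblast markers was 3.79 and 3.75 in WT and 4.14 and 4.23 in dbTg. It includes Thy1, at 1.11 and 1.15 in WT and 2.06 and 2.29 in dbTg, which was tested only through its dbTg readings. The mean of the 37 matrix genes less that of these markers was 0.56 and 0.42 in WT and 0.56 and 0.60 in dbTg. The groups overlapped on this measure, but Thy1 lowers it on the dbTg arrays, so nothing is concluded from the overlap. For the fibrillar collagens alone the same subtraction gave 0.47 and 0.27 in WT and 0.72 and 0.57 in dbTg, and for the basement membrane genes 0.72 and 0.61 in WT and 0.53 and 0.51 in dbTg, with no overlap in opposite directions.

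Macrophage and leukocyte markers had the most calls. Of 18 listed, 15 were tested and 11 rose in limma (2.01% of all tested genes), with a median of 1.83. The WT mean of 1 of the 11, C1qc, was 1.43, below the filter. Ctss, a lysosomal protease, rose by 4.23 and the macrophage glycoprotein gene Cd68 by 3.76, and the leukocyte genes Ptprc and Fcer1g rose by 2.79 and 2.32. Their mean was 2.92 and 2.69 in WT and 4.88 and 4.66 in dbTg; Cd3e, Cd79a and S100a8 lay under the filter. Of 8 listed adipocyte markers, 7 were tested, all with positive differences (median 1.31, 60.5% of all tested genes positive). Adipoq (1.47, adjusted p = 0.0376) and Lep (1.31, adjusted p = 0.0443, WT mean 1.26) rose (2.01% of all tested genes did). Their mean was 3.26 and 3.39 in WT and 4.54 and 4.33 in dbTg. Without dbTg replicate 1, and likewise without dbTg replicate 2, 1 leukocyte marker was called and 0 fibroblast, adipocyte or satellite cell markers were. With the replicate block 5 leukocyte markers were called and 0 of the other lists just named, and these were also at 0 after median centring and quantile normalization.

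The markers of other cell types did not pass the test, apart from 1 satellite cell gene. All 13 tested endothelial markers had negative differences (median -0.42), as did 5253 of all 13308 tested genes. Of the 13, 0 were called and 5 were lower at an unadjusted p under 0.05 (4.64% of all). Their mean was 3.92 and 4.19 in WT and 3.52 and 3.60 in dbTg. Cdh5, the endothelial cadherin, and Kdr, a VEGF receptor, each differed by -0.85 (adjusted p = 0.0929 and 0.184). The basement membrane mean less the endothelial mean was 0.59 and 0.16 in WT and 1.15 and 1.14 in dbTg. Of 9 tendon markers 8 were tested (median 0.18, -0.067 after median centring and -0.014 without dbTg replicate 2), with a mean of 3.97 and 3.85 in WT and 3.99 and 4.40 in dbTg. The tendon transcription factor Scx differed by 1.16 (adjusted p = 0.0652) and the matrix protein gene Thbs4 by 1.17 (adjusted p = 0.102), while Chad, a cartilage and tendon matrix protein gene, differed by -0.91 (adjusted p = 0.321). In 6 of the 8 the groups overlapped; Tnmd, a defining tendon membrane protein, read 3.83 and 3.58 in WT and 3.64 and 4.52 in dbTg. Smooth muscle and pericyte markers (10 tested, median -0.07), Schwann cell markers (4 of 8 tested, median 0.26, -0.13 with no intensity filter and 1.04 when filtered at the 60th percentile) and the fibre genes (10 tested, median -0.04) had 0 calls. Their smallest p-values belonged to Abcc9 (-0.51, adjusted p = 0.136) and Acta2 (0.91, adjusted p = 0.153) in the vessel wall list, Gldn (1.38, adjusted p = 0.116) and Pmp22 (0.71, adjusted p = 0.287) in the Schwann cell list, where Mbp (-0.27) and S100b (-0.19) were lower on both dbTg arrays, and Myh1 (0.51, adjusted p = 0.191) and Ckm (-0.36, adjusted p = 0.36) in the fibre list. Of 4 tested satellite cell markers 2 had positive and 2 negative differences (median -0.0043), with Pax7 at -0.28 and Cdh15 at -0.22, and Myf5 rose by 1.12 (adjusted p = 0.0397), with its WT mean, 1.19, below the filter. The fibre genes marked every array as skeletal muscle, with a mean of 10.28 and 10.39 in WT and 10.36 and 10.28 in dbTg.

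**Figure D5:**
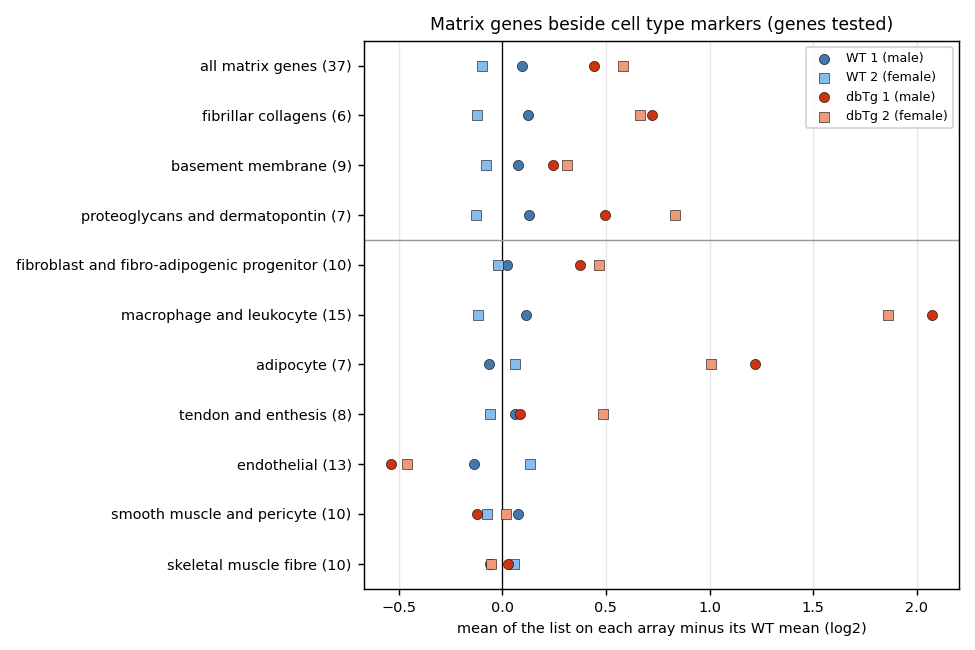
Mean of each gene list on each array minus its mean over the WT arrays (log2, horizontal axis) for matrix lists (above the line) and cell type markers (below it), with the number of tested genes in parentheses; blue is WT, red dbTg, circles male, squares female. Matrix genes and fibroblast markers sit at similar distances from WT, leukocyte and adipocyte markers further right and endothelial markers to the left. The fibroblast mean includes Thy1, which was tested only through its dbTg readings.

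The periostin gene Postn, a matricellular protein outside the list, passed the test in the same fit. It read 3.46 and 3.52 in WT and 5.52 and 6.76 in dbTg, a difference of 2.65 (SE 0.38, adjusted p = 0.027). No collagen or proteoglycan gene of the list differed by as much.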

How the data were processed

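Gene expression was measured on Affymetrix arrays labelled from quadriceps RNA, 2 WT and 2 dbTg arrays, grouped by the titles in the labels. The deposited values are log2 RMA values that the authors computed in Expression Console, per the labels; its version and the genome build go unnamed there. The array medians over 41345 rows ran from 1.55 to 1.60 and the upper quartiles from 2.78 to 2.99, higher in dbTg. The number of arrays limits the precision, and no presence call was used.

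Rows with exactly 1 symbol (23521) gave 22180 genes, each read at its brightest row. Those whose mean over all arrays reached the 40th percentile (1.48) were tested with limma 3.58.1 in R 4.3.3 (eBayes with trend, two-sided; 2 residual and 4.76 prior degrees of freedom), adjusted over all 13308. SE and intervals are limma's. The matrix genes, their roles and the other lists were chosen with earlier results of these data known, so their counts are descriptions with no set test. Each role's 2 genes with the smallest p-values and its brightest gene were to be given in full, and the rest were given too; of other lists, up to 4 called genes or the 2 with the smallest p-values were named. Postn and the further non-members named (Pdgfra, Tnmd, C1qc, Chad, Mbp, S100b, Pax7, Cdh15, Dag1, Lamb2, Itga1, Itgb5, Timp2 to Timp4, Mmp2, Mmp9, Mmp11, Mmp12, Mmp19, Ctsk and Mrc2) were chosen after their values were seen. The same-numbered arrays do not deviate together (r = 0.05 over all tested genes). The procedure was tested on simulated data. Alternatives were each array left out, the replicate block, other scalings, filters, probe set rules and variance models.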

Additional observations from a re-analysis of the deposited data

Results flagged for a closer look

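In 7 of the 37 tested matrix genes the male and the female pair differed in opposite directions, against 36.7% of all tested genes. The difference between the sexes was not tested, because each sex has 1 array per genotype. Values are log2 differences, dbTg minus WT, first in the male and then in the female pair. Fmod was at -0.36 and 0.36, and Lamb1 at -0.25 and 0.39. Lama2 ran the other way, at 0.27 and -0.40. Nid1 was at -0.094 and 0.45, and Col15a1 at -0.063 and 0.59. In the dimmer Nid1 row both dbTg arrays read above both WT arrays. Fbln1 was at -0.12 and 0.20. Col5a3 was at -0.0083 and 0.10.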

How the results depend on the processing

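Refits of the 37 tested matrix genes under 14 settings gave 0 to 9 called higher when 1 array was left out, 3 with the filter at the 60th percentile, 1 with averaged probe sets, 2 with robust eBayes and 0 under every other setting run; called lower were 0 throughout. The count higher at an unadjusted p under 0.05 was 7 to 20 with 1 array left out and 8 after median centring, against 14. The median difference was 0.41 to 0.61 with 1 array left out, 0.17 after median centring and 0.63 between the females, against 0.42. Median centring moved the median of all tested genes from 0.09 to -0.16, and quantile normalization to 0.0012; relative to it the matrix median was 0.33, 0.33 and 0.31 (as deposited, centred, quantile) and the basement membrane median 0.17, 0.17 and 0.13.

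Under the replicate block 0 matrix genes were called and 16 were higher at an unadjusted p under 0.05; of all tested genes, 63 were called higher in place of 267. Same-numbered arrays share only a number and a sex. Of 518 refitted values, 19 became calls and 24, in 9 genes near 0, crossed zero. After median centring the differences were Col5a3 -0.20, Col12a1 -0.042, Lamb1 -0.17, Nid1 -0.069, Hspg2 -0.19, Fbln1 -0.21 and Fmod -0.24. After quantile normalization they were Col5a3 -0.092, Lamb1 -0.12, Hspg2 -0.045, Fbln1 -0.15 and Fmod -0.13, and with averaged probe sets Fmod was at -0.014. With 1 array left out the ranges were -0.091 to 0.50 for Col12a1, -0.0088 to 0.54 for Col15a1, -0.29 to 0.16 for Lama2, -0.21 to 0.36 for Lamb1, -0.037 to 0.39 for Nid1, -0.047 to 0.12 for Fbln1 and -0.27 to 0.28 for Fmod. Median centring takes the same amount from the difference of every gene, so the sign changes under it belong to that shift. The cause of the other changes was not tested.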
